A study of Homo sapiens with 12 samples.

Results

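The nuclear genes that transcribe, replicate and package mitochondrial DNA (mtDNA) were followed in RNA-seq data from PC3 and DU145, a pair of androgen-independent lines established from human prostate cancers and given either vehicle or 2.5 μmol/L pentamidine for 48 hours. The machinery was defined by name as 10 genes of the 32077 in the count table, and all 10 were found and had enough counts to be tested in both lines. Each of the 4 groups (vehicle-treated and pentamidine-treated PC3 and DU145 cells) held 3 samples, 12 in all, and every sample is labelled wild type. The vehicle was sterile distilled water, and pentamidine is a cationic diamidine drug used against protozoa. The study also measured mtDNA content in these cells and reported a significant decrease with the drug in both lines. The question here was whether the genes that maintain and read mtDNA differed with the drug.

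Total counts ranged from 13514195 to 15131436 per sample. Every pair of samples within a group differed beyond counting noise (mean chi-square per gene 1.72 to 7.31), and the 2 largest values, 5.98 and 7.31, were those of PC3 vehicle replicate 1 against the other two. The labels do not say whether the 3 samples came from separate cultures, so the p-values measure the spread between these samples only. Cell lines are named as labelled. KLK3, a prostate luminal marker, had 0 to 2 counts in all samples, and so did the epithelial marker EPCAM. KRT18 was present in both lines, at 145 to 210 CPM in PC3 and 692 to 915 CPM in DU145. CTNNA1, which PC3 cells are known to lack, was counted in the samples labelled PC3, at 435 to 578 CPM, so this check did not bear out the label of that line. The paper states, on the other hand, that the identity of its cell lines had been checked through profiling of short tandem repeats.

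Human mtDNA is read by a single-subunit RNA polymerase, POLRMT, which needs TFAM to bend the promoter and TFB2M to open it, and TEFM to stay on the template. The same DNA is copied by DNA polymerase gamma, made of the catalytic subunit POLG and the accessory subunit POLG2, while SSBP1 coats the single strands, TOP1MT relieves torsion and MGME1 trims the ends left by replication. TFAM also wraps mtDNA into nucleoids. TFB1M, a paralogue of TFB2M, methylates the small ribosomal RNA of mitochondria. The transcription factors NRF1 and GABP (NRF-2) are textbook regulators of several of these genes.

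The promoter sequences of 9 of the 10 genes were therefore searched, on both strands, for the NRF1 and GABP motifs, in the 300-base RefSeq sequences that begin 250 bases before the start site (GRCh38.p14). The NRF1 palindrome, the capitals in the POLRMT and TFB1M lines, was present for POLRMT and TFB1M, against 1.52% of the 27305 genes with a promoter sequence. With any letter in place of its A it was present for POLRMT, TFAM, TFB1M and POLG2, against 6.98% of genes. The shorter NRF1 core GCATGCGC, which overlaps the palindrome, was present for POLRMT, TFB1M and TFB2M (3.68% of genes). The GABP core CCGGAAG was present for POLRMT, TFB1M, TEFM, POLG2 and SSBP1 (12.2% of genes). The 30-base windows below show an NRF1-type match for each of the 5 genes that held any of these NRF1 forms. No single form was present in all 5. Each is written 5′ to 3′ on the strand of the gene, with the match in capitals.
POLRMT: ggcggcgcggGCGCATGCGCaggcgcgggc
TFB1M: gcaggacttaGCGCATGCGCtctcagcacg
TFB2M: ctccgctgttcGCATGCGCaggctctagtg
TFAM: acgctctcccGCGCCTGCGCcaattccgcc
POLG2: cacctccgttGCGCCTGCGCcgtggcctct
These windows lie at chr19:633542-633571, chr6:155314597-155314626, chr1:246566258-246566287, chr10:58385337-58385366 and chr17:64497049-64497078, and the first letter of the match is 24, 132, 15, 63 and 14 bases before the start site, respectively. All lie on the minus strand except that of TFAM. POLRMT held another copy of the NRF1 core at chr19:633651-633680, 132 bases before its start site, and the GABP core at chr19:633612-633641, 93 bases before it. Both are read here on the strand of the gene, where they show the reverse complement of the letters given above.
POLRMT, upstream copy: agcgtccaccgGCGCATGCcttcgcgcctc
POLRMT, GABP core: ctgggagtctaCTTCCGGctggggtttccc
A match is a description of the letters and was not tested for binding.

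Levels are given as CPM (read counts relative to the library size after TMM scaling over the 12 samples), and differences as log2 fold changes of pentamidine against vehicle from edgeR's quasi-likelihood test, with p-values adjusted by Benjamini-Hochberg over all genes tested in that comparison. A gene is said to have risen or fallen where that adjusted p was below 0.05. In PC3 cells 5 of the 10 genes passed (4 lower, 1 higher), where the background was 43.4% of 13861. In DU145 cells 4 passed (3 lower, 1 higher), where it was 34.0% of 14313. Among all genes tested, 21.7% fell and 21.7% rose in PC3 cells, and 16.8% fell and 17.2% rose in DU145 cells. The shares among the 10 genes were thus near the background in total. On the log2 scale the median change of the 10 genes was -0.13 (PC3) and -0.079 (DU145), beside 0.0046 and 0.0085 for all genes tested. No gene of the machinery passed the study's own limit of an absolute log2 fold change above 1, which 4.75% of genes passed in PC3 cells and 2.03% in DU145 cells. In bulk RNA, fewer cells of a type and less of a transcript per cell cannot be told apart.

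**Figure D1:**
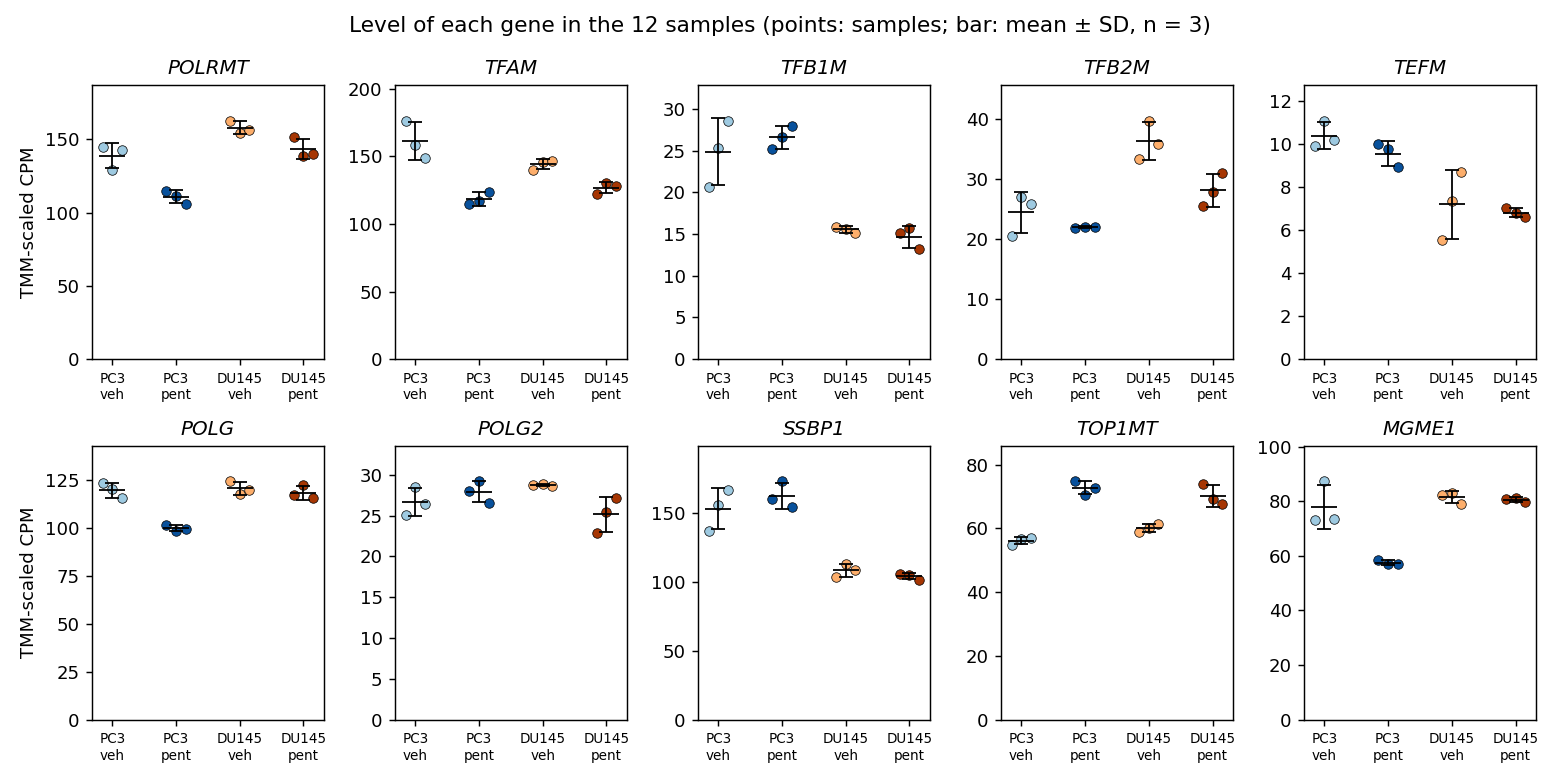
Level of each of the 10 genes (TMM-scaled CPM, vertical axes from 0) in the 12 samples, with the transcription genes in the upper row and the replication genes in the lower row; points are samples, bars the mean ± SD of 3 samples, and veh and pent stand for vehicle and pentamidine. TFAM and POLRMT were lower and TOP1MT higher in every pentamidine sample than in any vehicle sample of the same line, whereas MGME1 separated in PC3 cells and overlapped in DU145 cells.

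The polymerase and its architectural factor fell in both lines. POLRMT (chromosome 19, 617224 to 633604, minus strand), the RNA polymerase itself, was at 145, 129 and 143 CPM in the vehicle-treated PC3 samples and at 115, 112 and 106 CPM after pentamidine. This is a log2 fold change of -0.32 (standard error, SE, 0.057, adjusted p = 0.00024, edgeR), that is, it fell by 19.9%. In DU145 cells POLRMT was at 163, 155 and 157 CPM with vehicle and at 152, 139 and 140 CPM with pentamidine. The decrease was smaller, -0.14 (SE 0.039, adjusted p = 0.0056, edgeR). The groups did not overlap in either line, although under scaling by library size alone the DU145 value was -0.086 (adjusted p = 0.087, edgeR), and without DU145 pentamidine replicate 2 it was -0.12 (adjusted p = 0.053, edgeR). The processed copy POLRMTP1 held 1.72% of the count of POLRMT.

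TFAM (chromosome 10, 58385022 to 58399221, plus strand) was at 177, 158 and 149 CPM in vehicle-treated PC3 cells and at 115, 117 and 124 CPM after pentamidine, and fell by 26.2%. Its log2 fold change of -0.44 was close to that of MGME1, and these were the largest decreases of the 10 genes in PC3 cells (SE 0.061, adjusted p = 1.7e-05, edgeR). In DU145 cells TFAM was at 140, 146 and 147 CPM with vehicle and at 122, 130 and 128 CPM with pentamidine, and fell by 11.8% (log2 fold change -0.18, SE 0.040, adjusted p = 0.00024, edgeR). All pentamidine samples were below all vehicle samples of their line. The decrease in DU145 cells was smaller than that in PC3 cells by 0.26 on the log2 scale (95% interval 0.10 to 0.41, adjusted p = 0.014, edgeR's interaction test). The copy TFAMP1 had at most 1 count per sample. For TFAM the paper reported no significant change of transcription in either line, by a method its text does not name. The calls given here use the adjusted p alone. Neither decrease of TFAM passed the paper's RNA-seq limit, which also asks for an absolute log2 fold change above 1.

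Of the pair of methyltransferase-derived factors, TFB2M fell in DU145 cells. TFB2M (chromosome 1, 246540560 to 246566324, minus strand), which opens the promoter, was at 33.3, 39.7 and 35.7 CPM in vehicle-treated DU145 cells and at 25.5, 27.8 and 31.0 CPM after pentamidine, without overlap. It fell by 22.2%, the largest decrease of the 10 genes in that line (log2 fold change -0.36, SE 0.075, adjusted p = 0.00011, edgeR). In PC3 cells TFB2M was at 20.5, 27.0 and 25.7 CPM with vehicle and at 21.7, 22.0 and 22.0 CPM with pentamidine. PC3 vehicle replicate 1 was the lowest of these 6 samples, and the log2 fold change was -0.15 (95% interval -0.37 to 0.060, adjusted p = 0.24, edgeR), or -0.27 without that sample (adjusted p = 0.016, edgeR). The difference between the lines was -0.21 (adjusted p = 0.29, edgeR's interaction test).

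TFB1M (chromosome 6, 155257509 to 155314493, minus strand), which modifies ribosomal RNA, ranged from 20.7 to 28.6 CPM with vehicle and from 25.3 to 27.97 CPM with pentamidine in PC3 cells. In DU145 cells the ranges were 15.1 to 15.9 and 13.2 to 15.8 CPM. The groups overlapped in both lines, and the log2 fold changes were 0.10 (95% interval -0.12 to 0.32) and -0.078 (95% interval -0.28 to 0.12). TEFM (chromosome 17, 30897336 to 30906820, minus strand), the elongation factor, had the lowest level of the 10, with 74 to 171 counts per sample. Its counting error alone was 7.65% to 11.6%. Its log2 fold change was -0.12 in PC3 cells (95% interval -0.37 to 0.14) and -0.080 in DU145 cells (95% interval -0.39 to 0.22). TEFM and ADAP2 on the other strand share 301 exonic bases, and TFB1M and TIAM2 share 215, so their counts are uncertain where counting ignored strand. Over all samples ADAP2 had 50.7% of the counts of TEFM, and TIAM2 had 22.6% of those of TFB1M. TEFM also shares 542 exonic bases with the antisense gene AC130324.3, which was not among the genes counted. ADAP2 (log2 fold changes 0.080 and 0.055) and TIAM2 (-0.052 and 0.16) did not pass in either line.

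**Figure D2:**
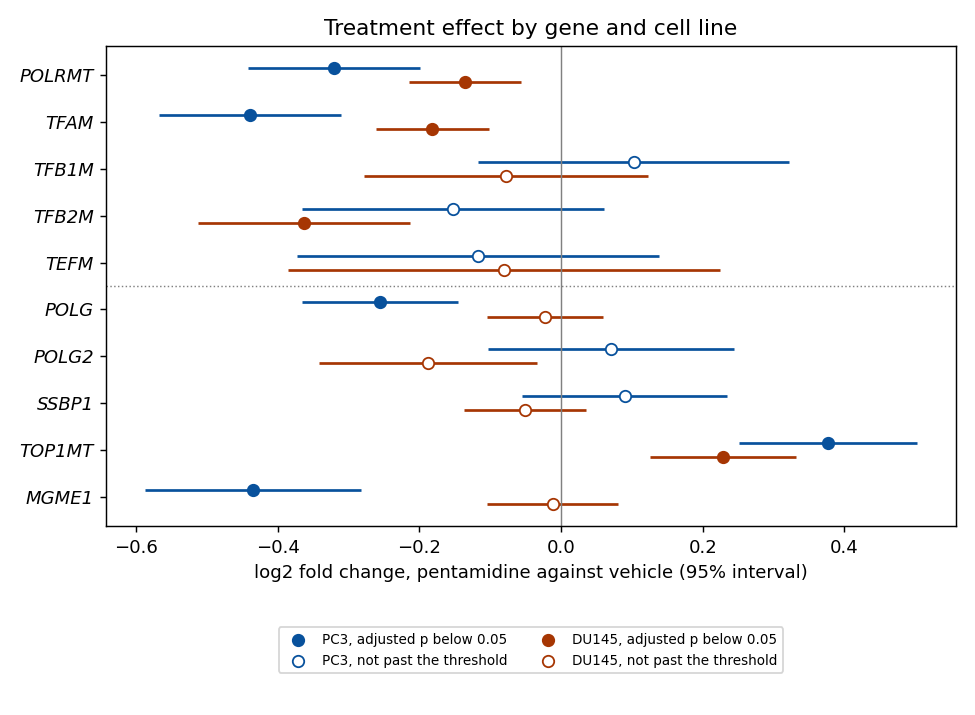
Log2 fold change of pentamidine against vehicle for each gene in PC3 cells (blue) and DU145 cells (brown), with 95% intervals from edgeR's quasi-likelihood fit; filled points have an adjusted p below 0.05 and the dotted line parts transcription from replication genes. TOP1MT lies to the right of 0 in both lines, POLRMT and TFAM to the left in both, and MGME1 and POLG to the left in PC3 cells with DU145 values close to 0.

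Among the replication genes, TOP1MT rose in both lines. TOP1MT (chromosome 8, 143304384 to 143359979, minus strand) encodes the mitochondrial type I topoisomerase. Its level was 54.8, 56.7 and 57.0 CPM in vehicle-treated PC3 cells and 74.7, 70.6 and 72.8 CPM after pentamidine, an increase of 29.8% (log2 fold change 0.38, SE 0.060, adjusted p = 6.9e-05, edgeR). In DU145 cells it was 58.9, 60.1 and 61.2 CPM with vehicle and 73.9, 69.1 and 67.5 CPM with pentamidine, an increase of 17.2% (log2 fold change 0.23, SE 0.051, adjusted p = 0.00035, edgeR). The groups did not overlap in either line, and every alternative processing other than the fold limit kept TOP1MT past the threshold in both. No other gene of the 10 rose in either line. The 2 increases differed by -0.15 on the log2 scale (95% interval -0.30 to 0.0079, adjusted p = 0.18, edgeR's interaction test).

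MGME1 (chromosome 20, 17968913 to 17991122, plus strand), the exonuclease that processes the ends of nascent mtDNA, was at 73.1, 87.2 and 73.3 CPM in vehicle-treated PC3 cells and at 58.5, 57.0 and 57.0 CPM after pentamidine. It fell by 26.02% (log2 fold change -0.43, SE 0.072, adjusted p = 0.00011, edgeR), with no overlap. In DU145 cells MGME1 was at 82.4, 83.1 and 79.1 CPM with vehicle and at 80.8, 81.2 and 79.7 CPM with pentamidine, and these groups overlapped (log2 fold change -0.012, 95% interval -0.10 to 0.081). The difference between the lines was 0.42 (95% interval 0.25 to 0.60, adjusted p = 0.00046, edgeR's interaction test), the largest of the 10 genes. MGME1 shares 68 exonic bases with SNX5 on the other strand, so its count is uncertain where counting ignored strand. Over all samples SNX5 had 254% of the counts of MGME1. The log2 fold changes of SNX5 were -0.040 and -0.034 in PC3 and DU145 cells, neither past the threshold.

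Of the subunits of the DNA polymerase, POLG fell in PC3 cells. POLG (chromosome 15, 89305198 to 89334861, minus strand), the catalytic subunit, was at 123, 120 and 115 CPM in vehicle-treated PC3 cells and at 102, 98.5 and 99.6 CPM after pentamidine, without overlap. It fell by 16.2% (log2 fold change -0.26, SE 0.052, adjusted p = 0.00076, edgeR). In DU145 cells POLG ranged from 118 to 124 CPM with vehicle and from 116 to 122 CPM with pentamidine, so that the groups overlapped (log2 fold change -0.023, 95% interval -0.11 to 0.059). The lines differed by 0.23 (95% interval 0.10 to 0.36, adjusted p = 0.010, edgeR's interaction test). POLG shares 458 exonic bases with FANCI, a DNA repair gene on the other strand, and the strand setting of the counting is not given in the sources used here. FANCI had 112% of the counts of POLG over all samples and fell in both lines, by 0.50 on the log2 scale in PC3 cells and by 0.11 in DU145 cells. The part of FANCI reads in the values of POLG was not tested.

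POLG2 (chromosome 17, 64477785 to 64497036, minus strand) was at 25.0 to 28.5 CPM with vehicle and 26.6 to 29.2 CPM with pentamidine in PC3 cells, and its log2 fold change there was 0.071 (95% interval -0.10 to 0.24). In DU145 cells it was at 28.8, 28.9 and 28.6 CPM with vehicle and at 22.9, 25.4 and 27.2 CPM with pentamidine. These groups did not overlap, but the log2 fold change of -0.19 (95% interval -0.34 to -0.035) stood just outside the threshold (adjusted p = 0.051, edgeR), and its adjusted p ranged from 0.021 (without DU145 pentamidine replicate 3) to 0.26 (without DU145 pentamidine replicate 1) over the alternatives, 4 of which put it below 0.05. SSBP1 (chromosome 7, 141738321 to 141787922, plus strand), the single-strand binding protein, ranged from 137 to 167 CPM with vehicle and from 154 to 173 CPM with pentamidine in PC3 cells. In DU145 cells it ranged from 104 to 113 and from 102 to 106 CPM. Both pairs of groups overlapped, and its log2 fold changes of 0.090 (95% interval -0.055 to 0.23) and -0.051 (95% interval -0.14 to 0.035) did not pass.

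Treated and untreated samples were fully apart for 5 of the 10 genes in PC3 cells (52.2% of all genes) and for 5 in DU145 cells (44.0%). In a model of all 12 samples with cell line as a term, 6 of the 10 passed, against 38.3% of 14851 genes (19.2% lower and 19.1% higher), and none passed the fold limit, against 2.29%. TFAM (-0.31), TFB2M (-0.27), POLRMT (-0.23), MGME1 (-0.22) and POLG (-0.14) fell and TOP1MT (0.30) rose. The count of genes that fell was 3 without PC3 pentamidine replicate 3, with MGME1 at an adjusted p of 0.052 and POLG at 0.055 (edgeR). POLG was also above 0.05, and so not called, without PC3 pentamidine replicate 2 (0.054) and under library size alone (0.074). Its adjusted p ranged from 0.0077 to 0.074 over all alternatives (edgeR and DESeq2). The effect differed between the lines for TFAM, POLG and MGME1, 3 of the 10 against 20.4% of 15226 genes (10.3% higher and 10.2% lower in DU145, 2.62% past the fold limit), and each of these decreases was smaller in DU145 cells. For POLRMT the difference of 0.19 had an adjusted p of 0.069 (edgeR's interaction test), which became 0.0094 under scaling by library size alone and 0.019 without PC3 vehicle replicate 2.

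In vehicle-treated cells 6 of the 10 genes differed between the lines, a share near the background of 65.3% among 14394 genes (33.8% higher and 31.5% lower in DU145). No gene of the 10 passed the fold limit, against 19.2%. These were the 5 transcription genes and SSBP1. TFB2M was higher in DU145 cells by 0.59 on the log2 scale (SE 0.10, adjusted p = 6.8e-05, edgeR) and TFB1M was lower there, at -0.65 (SE 0.11, adjusted p = 8.3e-05, edgeR). POLRMT was 0.21 higher in DU145 cells. SSBP1 was at -0.47 and TEFM at -0.50, both lower in DU145 cells, but TEFM was at -0.35 without DU145 vehicle replicate 1 (adjusted p = 0.057, edgeR). The difference of TFAM, -0.14, was at an adjusted p of 0.048 (edgeR). It was above 0.05 in DESeq2 (0.065) and without any single vehicle sample other than PC3 vehicle replicate 3. In all, its call was not kept in 8 of 16 settings, with the main fit counted among the 16. POLG, POLG2, TOP1MT and MGME1 did not pass, with intervals that reached from -0.070 (POLG) to 0.30 (POLG2).

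**Figure D3:**
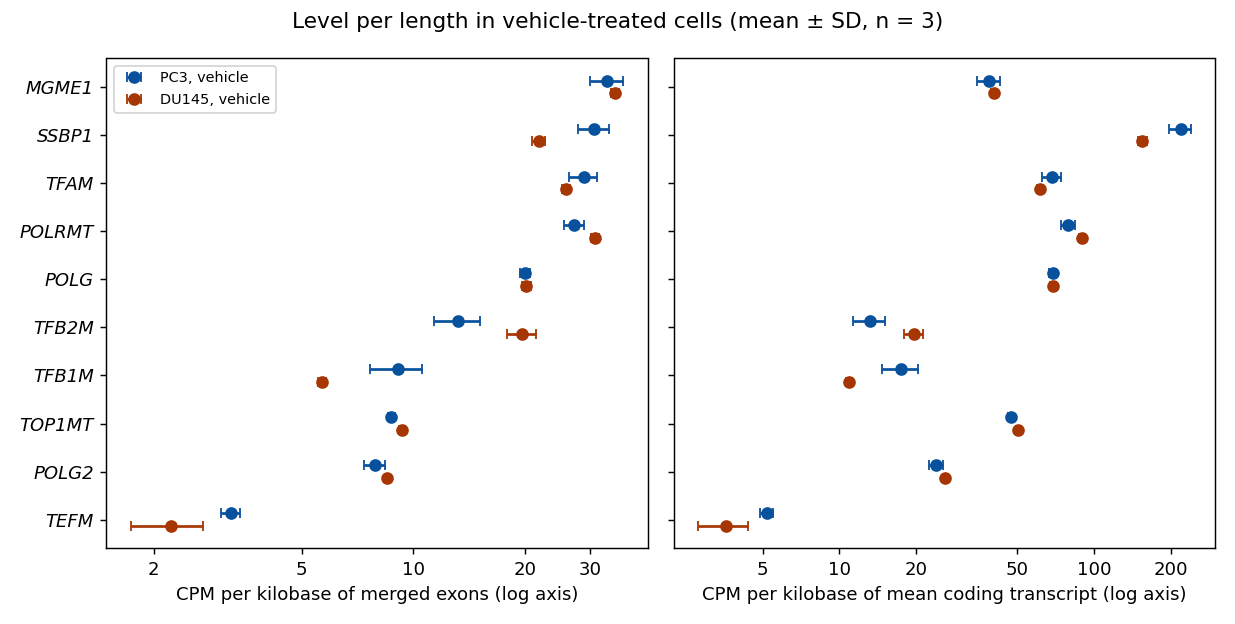
Level of each gene in vehicle-treated PC3 and DU145 cells as CPM per kilobase (log axis, mean ± SD of 3 samples), divided by the merged length of all annotated exons on the left and by the mean length of the coding transcripts on the right. TEFM is the lowest in both panels, and SSBP1 moves from second place in PC3 cells on the left to first place on the right.

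To compare the genes with each other, levels were divided by the merged length of their annotated exons (GENCODE release 29). In vehicle-treated PC3 cells MGME1 (33.3 ± 3.46), SSBP1 (30.8 ± 2.99), TFAM (28.8 ± 2.48) and POLRMT (27.1 ± 1.66 CPM per kilobase; SD, n = 3) stood highest, and neighbours in this order did not differ beyond their spread. POLG followed at 20.01 ± 0.658 and TFB2M at 13.2 ± 1.85 CPM per kilobase. TFB1M (9.10 ± 1.46), TOP1MT (8.72 ± 0.186) and POLG2 (7.86 ± 0.518) followed. The range of TFB1M held that of TOP1MT and overlapped that of POLG2, whereas TOP1MT and POLG2 were apart, and TEFM was lowest at 3.22 ± 0.191 CPM per kilobase. In vehicle-treated DU145 cells the order was MGME1 (34.9 ± 0.922), POLRMT (30.8 ± 0.837), TFAM (25.7 ± 0.619) and SSBP1 (21.7 ± 0.895 CPM per kilobase), all apart. There POLG (20.2 ± 0.550) and TFB2M (19.6 ± 1.73) overlapped in range, and TOP1MT (9.32 ± 0.183), POLG2 (8.49 ± 0.0345), TFB1M (5.69 ± 0.137) and TEFM (2.23 ± 0.492 CPM per kilobase) followed. The order rests on the length used. Divided by the mean length of the coding transcripts, SSBP1 was highest in PC3 cells at 219 ± 21.3 CPM per kilobase and MGME1 was sixth at 38.6 ± 4.01.

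Ratios of counts between genes of the same sample do not depend on scaling. The ratio of TFB2M to TFB1M was 0.993, 1.06 and 0.900 in vehicle-treated PC3 cells and 0.861, 0.826 and 0.787 after pentamidine, so that all treated samples were lower (two-sided exact permutation p = 0.10, the smallest that 3 against 3 samples allow). In vehicle-treated DU145 cells the same ratio was 2.099, 2.54 and 2.36, and it was 1.69, 1.76 and 2.35 after pentamidine, with overlap (exact permutation p = 0.20). The ratio in DU145 cells was thus above that in PC3 cells in every sample, with and without the drug. The ratio of POLG2 to POLG had a geometric mean of 0.222 with vehicle and 0.279 with the drug in PC3 cells, without overlap (exact permutation p = 0.10) and was 0.239 and 0.212 in DU145 cells (exact permutation p = 0.20). TFAM to POLRMT was 1.16 and 1.07 in PC3 cells (exact permutation p = 0.30). In DU145 it was 0.913 and 0.885 (exact permutation p = 0.60), and the groups overlapped in both lines. POLG to POLRMT was 0.863 and 0.903 in PC3 cells (exact permutation p = 0.40). In DU145 cells it was 0.763, 0.763 and 0.764 with vehicle and 0.772, 0.882 and 0.825 with pentamidine, without overlap (exact permutation p = 0.10). Adjusted over the 4 ratios of a line, no p was below 0.20.

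**Figure D4:**
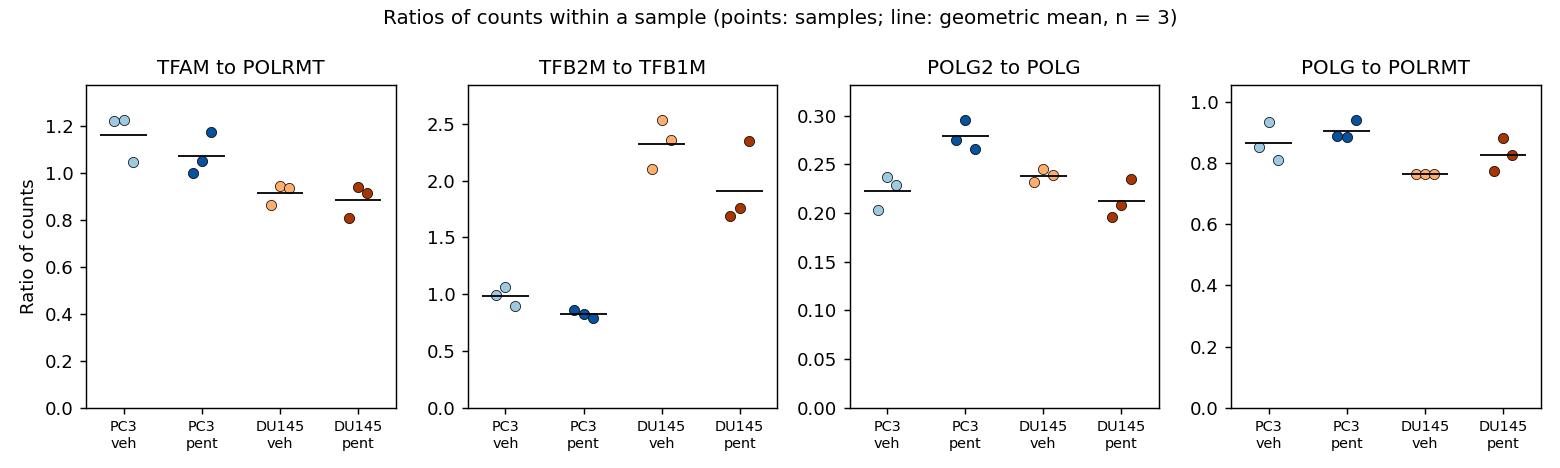
Ratios of the counts of 2 genes within each sample (vertical axes from 0; points are samples and lines the geometric mean of 3). The ratio of TFB2M to TFB1M lies between 0.787 and 1.06 in the PC3 samples and between 1.69 and 2.54 in the DU145 samples.

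The products of this machinery moved much further than its genes. In PC3 cells the 13 mRNAs encoded by mtDNA took 3.42% ± 0.0723 of counts with vehicle and 0.248% ± 0.0073 with the drug (SD, n = 3), and in DU145 cells 3.93% ± 0.11 and 0.209% ± 0.0042. Each of the 13 fell in PC3 and in DU145 (medians -4.12 and -4.84 on the log2 scale). The 2 ribosomal RNAs of mtDNA went the other way. Their share was 0.419% ± 0.0114 with vehicle and 2.46% ± 0.0423 with the drug in PC3 cells, and 0.601% ± 0.018 and 1.80% ± 0.0544 in DU145 cells. MT-RNR1, the small ribosomal RNA that TFB1M methylates, had log2 fold changes of 3.15 and 2.32. The paper also saw both ribosomal RNAs increased in its RNA-seq but found them reduced by qPCR. It presumed errors in the sequencing. The RNA was captured with Oligo(dT), and the part of capture in the shares of ribosomal RNA was not tested. The largest change of a machinery gene in either line was 0.44 in size (TFAM in PC3 cells).

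Upstream of the machinery, 11 of 12 regulators had enough counts to be tested. Of these, 4 fell in PC3 (21.7% of all genes fell) and 2 in DU145 cells (16.8% of all genes). The median over all 11 was -0.12 in PC3 and -0.059 in DU145. PPARGC1B, a coactivator of mitochondrial biogenesis, fell most, with -0.86 (SE 0.14, adjusted p = 0.00011, edgeR) in PC3 cells and -0.61 (SE 0.088, adjusted p = 1.1e-07, edgeR) in DU145 cells. The related coactivator PPRC1 fell in both lines (-0.23 and -0.19). NRF1 had log2 fold changes of -0.21 in PC3 cells (adjusted p = 0.056, edgeR) and -0.084 in DU145 cells (adjusted p = 0.47, edgeR). The paper also reported no significant change of NRF1 in either line. GABPA, the DNA-binding subunit of GABP, fell by 0.18 on the log2 scale in PC3 cells (adjusted p = 0.043, edgeR) and was at -0.011 in DU145 cells. PPARGC1A was not detectable at this depth, with 0 to 2 counts per sample.

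**Figure D5:**
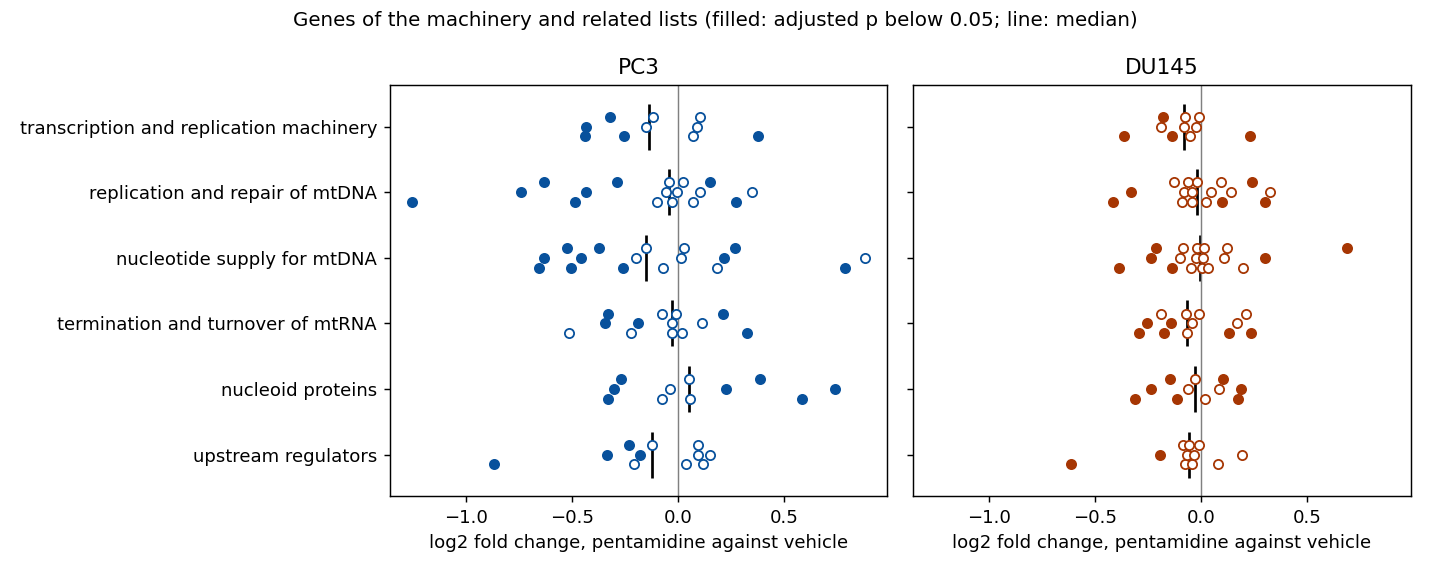
Log2 fold changes of pentamidine against vehicle for the 10 genes and for 5 further gene lists, by cell line; filled points have an adjusted p below 0.05 and vertical lines mark the median of each list. The medians lie between -0.15 and 0.051, and FEN1 is the lowest point at -1.25 in PC3 cells.

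The shares called in the lists that follow are to be read against 43.4% of all genes in PC3 and 34.0% in DU145. Of 17 other genes of mtDNA replication and repair, 2 rose and 6 fell in PC3 cells, and 3 rose and 2 fell in DU145 cells (medians -0.040 and -0.019). FEN1, the flap endonuclease shared with nuclear replication, was the single gene past the threshold in the same direction in both lines, with -1.25 (SE 0.063, adjusted p = 5.2e-11, edgeR) and -0.41 (SE 0.037, adjusted p = 1.0e-13, edgeR). Among 19 genes that supply nucleotides, 17 were tested in PC3 cells, where 3 rose and 7 fell, and 18 in DU145 cells, where 2 rose and 4 fell. RRM1, the large subunit of ribonucleotide reductase, fell in both lines (-0.63 and -0.14), and so did the dNTPase SAMHD1 (-0.46 and -0.39). Of 13 genes for termination and turnover of mitochondrial RNA, 2 rose and 3 fell in PC3 cells and 2 rose and 4 fell in DU145 cells. PNPT1, the RNA-degrading polynucleotide phosphorylase, fell in both (-0.34 and -0.30), as did the poly(A) polymerase MTPAP (-0.33 and -0.26), while MTERF4 rose (0.21 and 0.24).

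Of 11 other nucleoid proteins, 4 rose and 3 fell in PC3 cells (43.4% of all genes passed) and 3 rose and 4 fell in DU145 cells (34.0%). LONP1, the matrix protease that degrades TFAM, rose by 0.74 on the log2 scale in PC3 cells (SE 0.053, adjusted p = 6.2e-09, edgeR) and by 0.19 in DU145 cells (SE 0.039, adjusted p = 0.00016, edgeR). The matrix chaperone HSPA9 also rose (0.58 and 0.18). ATAD3B, an inner membrane ATPase found with nucleoids, fell by nearly the same amount in both lines (-0.33 and -0.31).

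Over the 12 samples, the genes whose levels followed each of the 3 genes that changed in both lines most closely were picked by the smallest root mean square difference in log2 CPM, centred on the gene's mean, among 13124 genes. For POLRMT these were PMPCA (0.046), PELP1 (0.046) and CXXC1 (0.047). Those of TFAM were NETO2 (0.040), CKAP2 (0.040) and RANBP2 (0.040). Closest to TOP1MT were RPL4 (0.041), TRMT1 (0.046) and RSAD1 (0.046).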

How the data were processed

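RNA of PC3 and DU145 cells was captured with Oligo(dT), sequenced as paired reads and, per the study's methods and the submitters' processing notes, aligned with HISAT2 2.1.0 to GRCh38. The table used holds the counts of reads per gene as deposited by the authors, without normalization. A table named for FPKM and 2 tables of the authors' own fold changes and p-values were not used (the notes also name DESeq 1.18.1). Of 33595 entries with an Ensembl identifier, repeated entries with the same name and counts were merged, leaving 32077 genes. The counting program, its strand setting and annotation are not given in the sources used here. The coordinates of the 10 genes were the same in GENCODE release 29.

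Groups and replicate numbers came from the sample titles. Counts were fitted by the quasi-likelihood method of edgeR 4.0.16 (R 4.3.3) with TMM scaling, after filterByExpr (minimum count 10), on the 6 samples of each comparison, or on all 12 for the common effect and the interaction. Standard errors are the log2 fold change divided by the root of the F statistic, and intervals are at 95%. Genes named outside the 10 are at most 3 per list, with an adjusted p below 0.05 and the same sign in both lines and the largest mean change, plus NRF1, GABPA, PPARGC1A, genes that overlap one of the 10, their copies and the closest patterns. The 10 genes and the lists were chosen with earlier results of these data known. Alternatives were RLE factors, library size alone, scaling without mtDNA genes, other count filters, DESeq2 1.42.0, a replicate block, all samples in one fit, other thresholds and leaving out each sample. Ratios were tested by exact permutation. The fits within a line were tested on simulated counts, with changes larger than any treatment effect of the 10 genes. Recovery of smaller changes was not tested. Total counts were 13514195 to 15131436 per sample. Counting error covers reads only, as no molecular identifiers are named.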

Additional observations from a re-analysis of the deposited data

Results flagged for a closer look

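By edgeR's interaction test, 3 of the 10 genes responded to pentamidine differently in the lines (differences are DU145 minus PC3, log2 scale). MGME1 differed by 0.4231, with an effect of -0.43 in PC3 and -0.012 in DU145, and stayed past the threshold with any 1 sample left out. TFAM differed by 0.2581 (-0.44 against -0.18), so that it fell in both lines and further in PC3. POLG differed by 0.2322 (-0.26 against -0.023), and FANCI, which overlaps it, had -0.50 and -0.11.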

How the results depend on the processing

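In PC3 cells POLRMT, TFAM, POLG, MGME1 and TOP1MT, and in DU145 cells TFAM, TFB2M and TOP1MT, were called under every alternative other than the fold limit. With an absolute log2 fold change above 1 as well, 0 of the 10 genes were called in any of the 5 comparisons. At an adjusted p below 0.01, 3 genes were called over both lines (2 lower), against 25.6% of all genes (12.8% lower), and 1 in the interaction, against 13.1%. Under library size alone, DU145 values turned positive for POLG (0.027) and MGME1 (0.038), and the vehicle difference of POLG between lines was -0.045. With 1 sample left out, the genes called lower ranged from 3 (without PC3 pentamidine replicate 3) to 5 over both lines and from 2 (without DU145 vehicle replicate 1) to 4 for the lines in vehicle. The values that changed sign ranged as follows. TFB1M in PC3 cells was -0.0197 to 0.21, and over both lines -0.052 to 0.0604. TEFM in DU145 cells was -0.24 to 0.078, and its interaction -0.12 to 0.19. MGME1 in DU145 cells was -0.034 to 0.0014. SSBP1 over both lines was -0.025 to 0.0395, the vehicle difference of POLG between lines -0.0012 to 0.054, and the log2 ratio of TFAM to POLRMT in DU145 cells differed by -0.089 to 0.021. None of these was past the threshold, and the cause was not tested. Dividing by the other gene length moved 36 of 40 levels. TEFM had the fewest counts, 74 to 171.

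The replicate numbers left no sign of pairing in the counts. The correlation of deviations was -0.12 to 0.039 over the 6 same-numbered pairs, and -0.12 to 0.14 over differently numbered pairs. These values cannot tell whether same-numbered samples were cultured or handled together. With the replicate block, 5599 genes were called in PC3 cells (6010 without) and 4794 in DU145 cells (4860 without), with 5 and 4 of the 10 genes called, as without it.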
